A study of Homo sapiens with 4 samples.

Results

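The chemoattractant receptors of myeloid cells described here are 10 genes: the formyl peptide receptors FPR1, FPR2 and FPR3, the complement receptors C5AR1 and C3AR1, the chemokine receptors CCR1, CCR2, CX3CR1 and CXCR4, and the platelet-activating factor receptor PTAFR. They were chosen by name, with earlier results of these data known. Every probe set whose only gene symbol was 1 of these was taken, which gave 11 probe sets for the 10 genes, among 18417 genes named in this way on the array. CCR2 had 2 probe sets, and its brighter probe set stood for the gene. FPR3 was among the 30% of genes with the lowest mean intensity, which were left out of the test, so 9 of the 10 receptors were among the 12892 genes tested.

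The cells were NOMO-1, an established cell line from a human monocytic acute myeloid leukaemia, infected with lentivirus. The ZFX knock-down group held 1 array for each of the hairpins ZFX-SH1 and ZFX-SH3, called SH1 and SH3 below. The control group, labelled wild type for ZFX, held 1 array for a lentivirus that carries GFP (LEN-GFP) and 1 for a scrambled hairpin (SCR). All 4 cultures had been exposed to lentivirus at a multiplicity of infection of 1 and selected, and RNA was taken 48 h after selection. No construct was repeated, and the labels do not say whether the cultures were independent, so the spread within a group is that between constructs and arrays together. Values are normalized probe set intensities on the log2 scale, where a difference of 1 is a doubling.

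These receptors are G protein-coupled receptors that cross the membrane several times. Most of them signal through Gi proteins, whose freed beta-gamma subunits activate phospholipase C-beta and phosphoinositide 3-kinase gamma, and so turn the cell up a gradient of its attractant. Formyl peptide receptors sense peptides that start with formylmethionine, which bacteria and mitochondria make, and complement receptors sense the fragments C5a and C3a. Chemokine receptors guide monocytes between marrow, blood and tissue. Arrestins and receptor kinases switch the receptors off after use.

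The windows around the start sites of these genes were searched for short motifs. RefSeq gave windows for 9 of the 10 receptors (GRCh38.p14, all but FPR3), with 15 start sites in all, and each window ran from 250 bases before the start to 20 bases after it. The 4 windows printed below, 5′ to 3′ on the strand of the gene, are those that hold the AP-1 motif TGAGTCA or its reverse complement TGACTCA, and the PTAFR window also holds the ZFX core motif AGGCCT. Capitals mark these motifs.
FPR1: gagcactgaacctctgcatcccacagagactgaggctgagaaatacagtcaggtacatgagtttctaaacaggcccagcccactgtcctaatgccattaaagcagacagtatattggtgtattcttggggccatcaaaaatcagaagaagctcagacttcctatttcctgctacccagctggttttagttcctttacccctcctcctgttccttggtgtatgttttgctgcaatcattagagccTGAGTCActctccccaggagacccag
CCR2: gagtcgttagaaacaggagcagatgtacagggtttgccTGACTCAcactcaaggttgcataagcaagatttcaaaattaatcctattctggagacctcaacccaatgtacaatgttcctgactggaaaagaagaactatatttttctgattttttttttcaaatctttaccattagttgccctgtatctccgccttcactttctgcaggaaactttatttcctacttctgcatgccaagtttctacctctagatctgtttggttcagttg
C3AR1: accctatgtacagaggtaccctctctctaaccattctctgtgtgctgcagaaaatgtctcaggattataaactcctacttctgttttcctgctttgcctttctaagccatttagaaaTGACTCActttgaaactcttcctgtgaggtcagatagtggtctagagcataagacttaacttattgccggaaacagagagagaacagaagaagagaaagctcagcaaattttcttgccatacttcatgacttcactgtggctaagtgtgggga
PTAFR: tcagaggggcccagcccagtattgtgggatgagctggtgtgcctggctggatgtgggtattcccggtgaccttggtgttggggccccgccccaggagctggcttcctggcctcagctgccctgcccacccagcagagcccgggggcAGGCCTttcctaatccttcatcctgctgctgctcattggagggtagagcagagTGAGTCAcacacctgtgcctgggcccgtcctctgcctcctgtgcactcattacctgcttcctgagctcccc
The windows lie at chr19:51751859-51752128 (minus strand) for FPR1, chr3:46353861-46354130 (plus strand) for CCR2, chr12:8066340-8066609 (minus strand) for C3AR1 and chr1:28193837-28194106 (minus strand) for PTAFR.

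AP-1 is the dimer of Fos and Jun proteins, and its motif was picked after the sequences had been read. It was present in 4 of the 9 receptors with a window, against 4.98% of 15842 protein-coding genes with windows of the same length. Counted by window it was in 4 of 15, against 3.76%. The motif was picked from these same sequences, so these shares cannot show an enrichment. It began 6 bases before the start in FPR1, so that its last base fell on the start itself, 51 bases before it in PTAFR, 133 in C3AR1 and 212 in CCR2. The motif AGGCCT, which reads the same on both strands, was present in 1 of the 9 receptors, PTAFR, against 12.8% of genes. The motif GAGGAA, or TTCCTC on the other strand, is the core bound by the myeloid factor PU.1. It was present in 4 of the 9, namely C5AR1, CX3CR1, CXCR4 and PTAFR, against 31.2% of genes. No 2 of the motif matches overlapped. Of the 4 receptors with the AP-1 letters, FPR1 was higher on SH3 by 1.82 on the log2 scale and differed by only 0.026 on SH1. CCR2 was higher by 0.52 on SH1 and 0.56 on SH3. C3AR1 and PTAFR differed by -0.013 and 0.18 on SH3, and by -0.13 and 0.048 on SH1. Of the receptors with windows but without these letters, CX3CR1, FPR2, C5AR1 and CCR1 were higher on SH3 by 0.65, 0.50, 0.45 and 0.30. On SH1 they differed by 0.22, 0.16, -0.40 and 0.12 in the same order. CXCR4 differed by -0.13 on SH3 and 0.12 on SH1. A match is a run of letters and not a measured binding site.

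The 4 arrays had median intensities between 184.8 and 189.8. ZFX, the zinc finger transcription factor targeted by the hairpins, had log2 intensities of 10.13 on SH1 and 10.12 on SH3, against 10.65 on LEN-GFP and 10.66 on SCR, and so stood at 69.3% of its control level. The groups did not overlap for ZFX, and the difference of -0.53 (SE 0.10, adjusted p = 0.797 in limma) did not pass over all genes. Of 20 marker genes of monocytic leukaemia cells 18 were on the array under 1 symbol, and each of these 18 was above the limit on dim genes, among them ITGAM, ITGAX and CSF1R. CD14 lay near that limit (log2 6.70), with 7.27 on SH1, 7.62 on SH3, 7.35 on LEN-GFP and 7.37 on SCR. The T cell markers CD3D, CD3E and CD3G were all under that limit, and CD8A lay near it, from 6.67 on SH3 to 7.12 on SCR. Some markers of other cell types were above the limit, among them CD79B, NCAM1 and KRT18, with control means of 8.69, 9.58 and 9.97. A place above the limit therefore does not settle the cell type.

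With both hairpins set against both controls, limma called 0 of the 9 tested receptors at an adjusted p of 0.05, against 0% of all tested genes. CCR2 was the 1 receptor with an unadjusted p under 0.05, against 6.04% of all tested genes (2.78% higher and 3.26% lower). Both hairpin arrays lay above both controls for 4 of the 9 receptors (CCR1, CCR2, CX3CR1 and FPR2), against 18.2% of all tested genes, and below both for 0 of the 9, against 19% of all genes (37.2% in either direction). The median difference over the 9 receptors was 0.21, against -0.0029 over all tested genes. These shares and medians are a description and no test, since the receptors were chosen with earlier results known. With 2 arrays a group an exact two-sided permutation test of a single value cannot go below a p of 0.333.

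**Figure D1:**
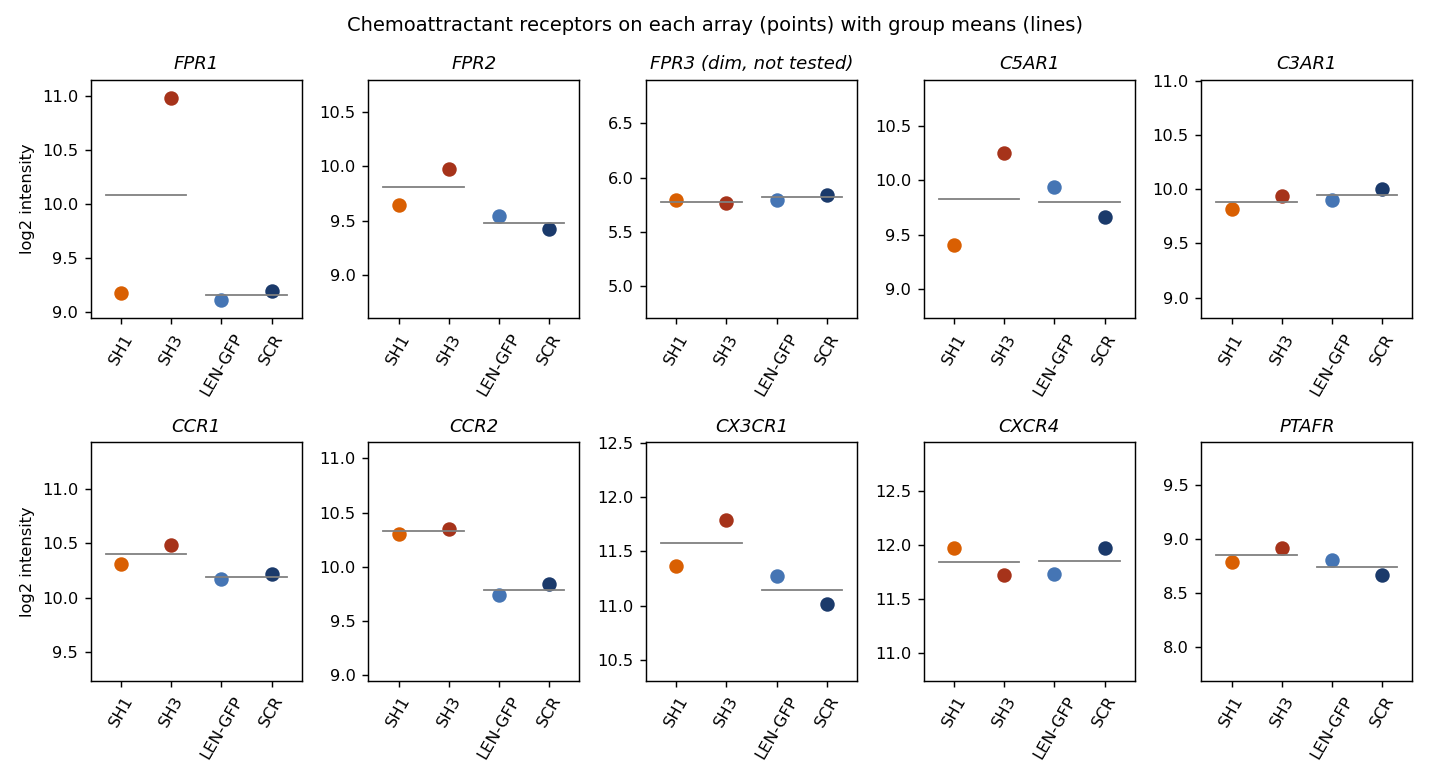
Log2 intensity (y axis) of each of the 10 receptors on the hairpin arrays SH1 and SH3 and the control arrays LEN-GFP and SCR (x axis), with a grey line at each group's mean. All panels span the same range of 2.2 log2 units; FPR1 stands out on SH3 alone at 10.98, while CCR2 is higher on both hairpin arrays (10.31 and 10.35) than on both controls (9.74 and 9.84).

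The formyl peptide receptors differed from one another. FPR1, the high-affinity receptor for bacterial formyl peptides, had log2 intensities of 9.18 on SH1 and 10.98 on SH3, against 9.12 on LEN-GFP and 9.20 on SCR. Only the SH3 array was high, and SH1 lay between the 2 controls. The mean was 10.08 ± 1.27 on the hairpin arrays and 9.16 ± 0.056 on the controls (SD, n = 2 each), and the difference of 0.92 (SE 0.58, adjusted p = 0.804) did not pass. FPR2, which binds serum amyloid A, annexin A1 and the cathelicidin peptide, was at 9.64 on SH1 and 9.98 on SH3, against 9.54 on LEN-GFP and 9.42 on SCR. The groups did not overlap, though the nearest arrays were 0.10 apart, and the difference of 0.33 (SE 0.16, adjusted p = 0.797) did not pass. FPR3, a receptor for a peptide of the haem-binding protein HEBP1, was dim, at 5.79 on SH1 and 5.76 on SH3, against 5.80 on LEN-GFP and 5.84 on SCR. Its difference of -0.044 is given without a test, since no value of the table tells a dim gene from an unexpressed one. The 3 genes lie side by side on chromosome 19 (FPR1 at 51745172 to 51751878, FPR2 at 51761180 to 51770531 and FPR3 at 51795157 to 51826190, GRCh38.p14). They are paralogs, and how far their probe sets share signal was not tested.

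The complement receptors showed no difference between the groups that passed. C5AR1, the receptor for C5a, had log2 intensities of 9.41 on SH1 and 10.25 on SH3, against 9.94 on LEN-GFP and 9.67 on SCR. The hairpin arrays lay on opposite sides of both controls, SH1 below and SH3 above, and the mean difference was 0.027 (SE 0.30, adjusted p = 0.993). C3AR1, the receptor for C3a, was at 9.82 on SH1 and 9.94 on SH3, against 9.90 on LEN-GFP and a value 0.095 above that on SCR. The groups overlapped. Its difference of -0.071 had a 95% interval from -0.38 to 0.23, which leaves room for a change of either sign.

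Among the chemokine receptors CCR2, the receptor for CCL2 that marks classical monocytes, was at 10.31 on SH1 and 10.35 on SH3, against 9.74 on LEN-GFP and 9.84 on SCR. The hairpin arrays were alike and the nearest arrays of the groups were 0.47 apart. The mean was 10.33 ± 0.033 on the hairpin arrays and 9.79 ± 0.070 on the controls (SD, n = 2 each), which is 1.45-fold (log2 0.54, SE 0.11). The difference did not pass over all genes (unadjusted p = 0.00498, adjusted p = 0.797 in limma), and 3.38% of all tested genes had a difference at least as large in either direction.

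The other probe set of CCR2 gave 10.23 on SH1 and 10.15 on SH3, against 9.44 on LEN-GFP and 9.54 on SCR. It too had both hairpin arrays above both controls, by 0.61 or more. In its place in the same fit, an alternative chosen after the data were seen, it gave a difference of 0.70 (SE 0.12, adjusted p = 0.797), or 1.63-fold. Nothing in the annotation says whether the 2 probe sets share probes, so they do not count as independent measurements.

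CX3CR1, the receptor for fractalkine that is high on patrolling monocytes, was at 11.37 on SH1 and 11.79 on SH3, against 11.27 on LEN-GFP and 11.02 on SCR. The groups did not overlap, but SH1 was only 0.097 above LEN-GFP while the controls were 0.25 apart, and the difference of 0.44 (SE 0.18, adjusted p = 0.797) did not pass. CCR1, which binds CCL3, CCL5 and CCL7, was at 10.31 on SH1 and 10.49 on SH3, against 10.17 on LEN-GFP and 10.21 on SCR. Both hairpin arrays were higher, by 0.094 or more, and the difference of 0.21 (SE 0.12, adjusted p = 0.797) did not pass. CXCR4, the receptor for CXCL12 that holds blood and leukaemia cells in the marrow, was at 11.97 on SH1 and 11.72 on SH3, against 11.73 on LEN-GFP and 11.97 on SCR. The groups overlapped, with a difference of -0.0066 and a 95% interval from -0.36 to 0.35.

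PTAFR, the receptor for the lipid mediator platelet-activating factor, was at 8.78 on SH1 and 8.91 on SH3, against 8.81 on LEN-GFP and 8.67 on SCR. SH1 lay between the controls, and the difference of 0.11 had a 95% interval from -0.21 to 0.43 (adjusted p = 0.875). PTAFR is the 1 receptor here whose window holds the letters AGGCCT.

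Each hairpin array was then set alone against both controls, in a fit with 1 residual degree of freedom. The lone array is assumed there to vary like the control pair, whose spread limma draws towards that of all tested genes. Both comparisons share the 2 controls. With SH3 alone limma called 4 of the 9 receptors higher and 0 lower, against 6.27% of all tested genes higher and 6.9% lower (13.2% in all). FPR1 was 3.53-fold higher on SH3 (log2 1.82, SE 0.13, adjusted p = 2.15e-04) and CX3CR1 1.57-fold (log2 0.65, SE 0.13, adjusted p = 0.0112). CCR2 was 1.48-fold higher (log2 0.56, SE 0.13, adjusted p = 0.0222) and FPR2 1.41-fold (log2 0.50, SE 0.14, adjusted p = 0.0437). C5AR1, at 0.45 (adjusted p = 0.0856), and CCR1, at 0.30 (adjusted p = 0.158), did not pass.

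With SH1 alone limma called 0 of the 9 receptors, against 0.171% of all tested genes higher and 0.248% lower (0.419% in all). CCR2 was 1.43-fold its control level on SH1 (log2 0.52, SE 0.13), with an adjusted p of 0.151 and an unadjusted p of 0.00305. C5AR1 was at -0.40 and was not called. The others lay between -0.13 for C3AR1 and 0.22 for CX3CR1.

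The difference between the hairpins themselves was tested with each hairpin array as its own group, a fit chosen after the data were seen. Of the 9 receptors 2 were higher on SH3 than on SH1 and 0 lower, against 4.01% of all tested genes higher and 4.48% lower (8.49% in all). FPR1 differed by 1.79 (SE 0.15, adjusted p = 7.38e-04) and C5AR1 by 0.84 (SE 0.17, adjusted p = 0.0209). CX3CR1, at 0.42 (adjusted p = 0.119), and FPR2, at 0.34 (adjusted p = 0.254), did not pass. CCR2 differed between the hairpins by 0.047 (SE 0.15, adjusted p = 0.913). CXCR4 was the 1 receptor of the 9 tested with a lower value on SH3 than on SH1, a difference of -0.25 that did not pass.

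**Figure D2:**
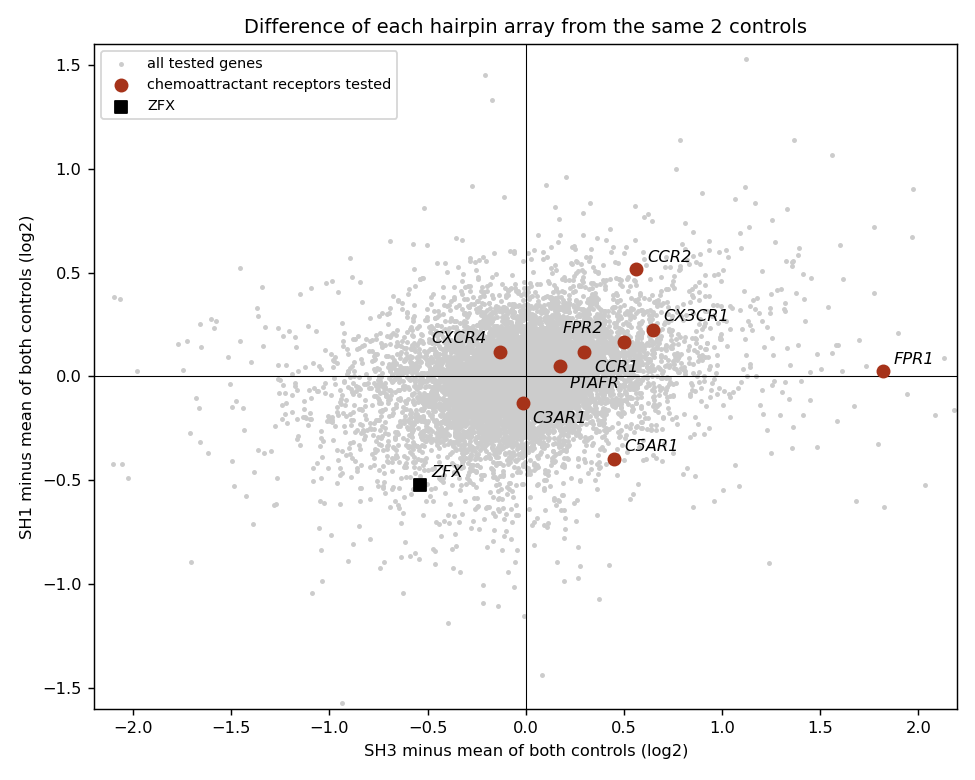
Each tested gene by its SH3 value (x axis) and its SH1 value (y axis), both minus the mean of the same 2 controls on the log2 scale, with the 9 tested receptors in red, ZFX as a black square and all tested genes in grey (15 genes lie outside the axes). FPR1 lies far right on the zero line of SH1, CCR2 is near 0.5 on both axes, and C5AR1 is below zero for SH1 and above it for SH3.

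CX3CR1, CCR1 and CCR2, the 3 receptors on chromosome 3, each had both hairpin arrays above both controls, against 18.2% of all tested genes. The nearest arrays of the groups were only 0.097 apart for CX3CR1 and 0.094 for CCR1. This is a description, and a link to the chromosome was not tested. CCR1 (46201711 to 46208313) and CCR2 (46354111 to 46360940) lie in the cluster of chemokine receptor genes there, and CX3CR1 (39263494 to 39292966) lies apart from it on the same arm. Of the 5 tested protein-coding genes whose start lay within 500 kb of the CCR2 start, the 3 that are not among the receptors described here were XCR1, CCRL2 and FYCO1. XCR1, the receptor for lymphotactin, had both hairpin arrays above both controls, with a difference of only 0.073. With CCR1 and CCR2, 3 of the 5 genes lay above both controls and 0 below, against 18.2% and 19% of all tested genes. CCRL2, an atypical receptor that presents chemerin, was at 7.07 on SH1 and 7.62 on SH3, against 7.07 on LEN-GFP and 6.92 on SCR. It was therefore high on SH3 alone, with 0.62 (adjusted p = 0.0149). FYCO1, a gene of autophagosome transport that is no receptor, differed by -0.022. Within 500 kb of the FPR1 start 7 of 25 tested genes, FPR2 among them, lay above both controls and 3 below, against 18.2% and 19% of all tested genes, with a median of 0.029. SIGLEC14, an activating receptor for sialic acids, had 8.79 on SH1 and 9.60 on SH3, against 8.18 on LEN-GFP and 8.28 on SCR, a difference of 0.96. The neighbours were chosen for their position after the receptors' values were seen.

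**Figure D3:**
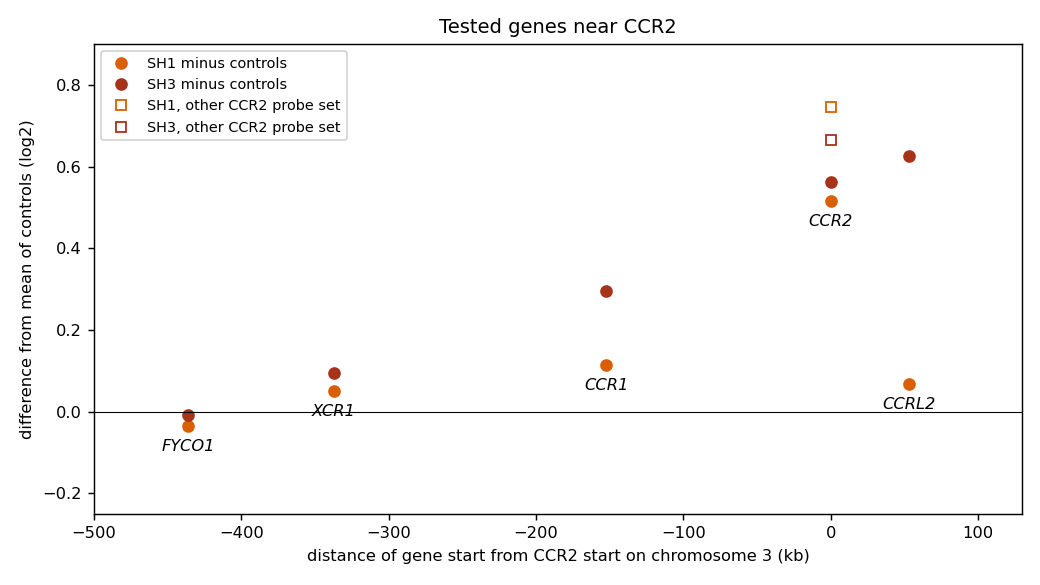
Difference of SH1 and of SH3 from the mean of both controls on the log2 scale (y axis) for the 5 tested protein-coding genes within 500 kb of CCR2, by distance of their start from that of CCR2 in kb (x axis), with open squares for the other CCR2 probe set. CCR2 is above 0.5 on both hairpins with both probe sets, CCR1 and CCRL2 are higher on SH3 than on SH1, and FYCO1 lies at zero.

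Genes of the same pathway were taken from 4 lists, and limma called 0 genes of each in either direction with both hairpins against both controls. At an unadjusted p under 0.05 there were 0 higher and 3 lower of the 22 tested ligand genes, 3 higher and 1 lower of the 35 tested signalling genes, 4 higher and 0 lower of the 25 tested desensitisation genes, and 1 higher and 1 lower of the 18 other tested receptors. Over all tested genes these shares were 2.78% higher and 3.26% lower. The medians were 0.060, 0.085, 0.039 and 0.11 in the same order, against 0.21 for the 9 receptors and -0.0029 for all genes. From each list the 4 tested genes with the largest difference and groups that did not overlap are named below, and none of them passed (adjusted p = 0.797 for each).

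**Figure D4:**
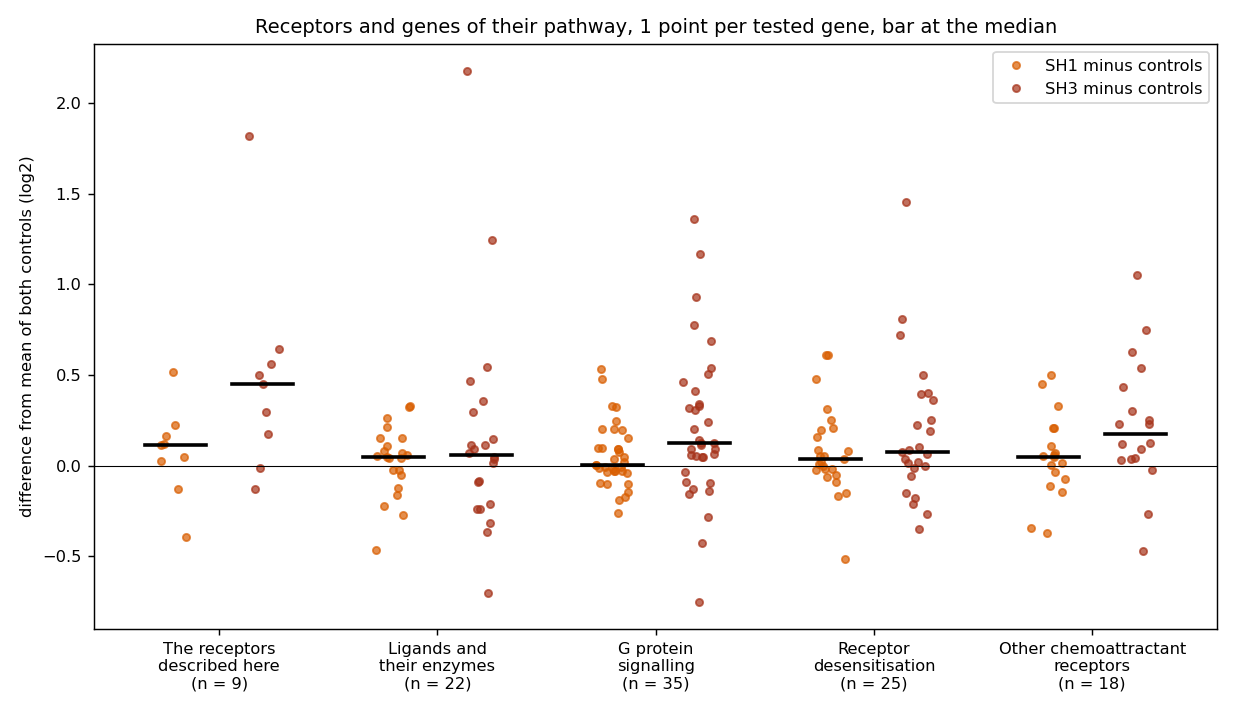
Difference of each tested gene from the mean of both controls on the log2 scale (y axis), 1 point per gene for SH1 and for SH3, for the 9 receptors and the 4 lists of their pathway (x axis), with a black bar at the median. The receptors have medians of 0.12 on SH1 and 0.45 on SH3, and the lists lie between 0.0052 and 0.050 on SH1 and between 0.059 and 0.18 on SH3.

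Among ligands and the enzymes that make or clear them, 8 of 22 genes had both hairpin arrays above both controls and 4 below, against 18.2% and 19% of all tested genes. C3, the precursor of the C3AR1 ligand C3a, was at 10.17 on SH1 and 11.08 on SH3, against 9.93 on LEN-GFP and 9.74 on SCR. Its difference was 0.79 (SE 0.31), and SH3 exceeded SH1 by 0.91 (adjusted p = 0.00934). HEBP1, the precursor of the FPR3 ligand, was at 9.72 on SH1 and 9.83 on SH3, against 10.19 on both controls, a difference of -0.42 (SE 0.11) that was alike on both hairpins. CAMP, the precursor of the FPR2 ligand LL-37, differed by 0.33 (0.11 on SH1, 0.55 on SH3). ADAM17, a protease that sheds fractalkine from cells, differed by 0.31 (0.15 on SH1, 0.47 on SH3). CCL2, the ligand of CCR2, is named in addition after its values were seen. It was at 9.17 on SH1 and 11.51 on SH3, against 9.63 on LEN-GFP and 9.03 on SCR, so that SH3 alone was high, and SH1 lay between controls that were 0.60 apart.

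Among G protein subunits and the kinases and exchange factors below the receptors, 12 of 35 genes had both hairpin arrays above both controls and 5 below, against 18.2% and 19% of all tested genes. PIK3R6, a regulatory subunit of phosphoinositide 3-kinase gamma, was at 9.06 on SH1 and 9.88 on SH3, against 8.67 on LEN-GFP and 8.38 on SCR, a difference of 0.95 (SE 0.30). GNG2, a G protein gamma subunit, had a difference of 0.75 (SE 0.29), made up of 0.32 for SH1 and 1.17 for SH3. FGR, a Src family kinase of myeloid cells, was at 11.13 on SH1 and 11.34 on SH3, against 10.71 on LEN-GFP and 10.59 on SCR, and its difference was 0.58 (SE 0.12), 0.48 for SH1 and 0.69 for SH3. PREX1, an exchange factor for Rac that beta-gamma subunits activate, had a difference of 0.49 (SE 0.21), 0.20 for SH1 and 0.78 for SH3. On SH3 the median of the 35 was 0.13 over the controls, against -0.0015 over all tested genes. The medians on SH3 were 0.059 for ligands, 0.073 for desensitisation and 0.18 for other receptors.

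Among genes that switch the receptors off, 8 of 25 had both hairpin arrays above both controls and 3 below, against 18.2% and 19% of all tested genes. RGS2, which speeds the return of G proteins to rest, was at 8.47 on SH1 and 9.45 on SH3, against 7.79 on LEN-GFP and 8.20 on SCR, a difference of 0.97 (SE 0.35). GRK5, a receptor kinase, was at 8.20 on SH1 and 8.40 on SH3, against 7.48 on LEN-GFP and 7.70 on SCR, a difference of 0.71 (SE 0.13). GRK3, another receptor kinase, was at 10.79 on SH1 and 10.43 on SH3, against 10.21 on LEN-GFP and 10.15 on SCR, and was the higher on SH1. RGS10, a regulator of the same kind as RGS2, differed by 0.31 (SE 0.16), and its controls were 0.36 apart.

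Among other chemoattractant receptors, 5 of 18 tested genes had both hairpin arrays above both controls and 1 below, against 18.2% and 19% of all tested genes. ACKR2, a scavenger of inflammatory chemokines, had a difference of 0.43 (SE 0.10), 0.33 for SH1 and 0.54 for SH3. CCR10, the receptor for CCL27 and CCL28, was at 9.39 on SH1 and 9.47 on SH3, against 9.72 on LEN-GFP and 9.76 on SCR, a difference of -0.31 (SE 0.11). OXER1, a receptor for an oxidised eicosanoid, differed by 0.28, with 0.45 on SH1 and 0.12 on SH3, and CYSLTR1, a leukotriene receptor, by 0.25, with 0.21 and 0.30. CCR7, which steers mature dendritic cells to lymph nodes, is named after its values were seen, and was at 10.73 on SH1 and 11.86 on SH3, against 10.95 on LEN-GFP and 10.66 on SCR. Its SH3 array alone was high (log2 1.05, adjusted p = 0.00183).

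FPR1 had the widest range of the 9 tested receptors over the 4 arrays, 1.86 on the log2 scale. The 5 protein-coding genes whose 4 values, each minus the gene's mean, lay nearest to those of FPR1 by Euclidean distance were TRIB2 (distance 0.21), PRDM1 (0.24), IL1B (0.27), FCRL1 (0.27) and EGLN3 (0.27). IL1B, the cytokine interleukin-1 beta, was at 7.95 on SH1 and 9.98 on SH3, against 8.14 on LEN-GFP and 7.93 on SCR. PRDM1, a transcriptional repressor, was at 7.93 on SH1 and 9.62 on SH3, against 7.82 on LEN-GFP and 7.62 on SCR. SH3 was the high array in each of the 5, by 1.58 to 1.94 over the mean of the controls. SH1 also lay above both controls for PRDM1, FCRL1 and EGLN3, by at most 0.21 over their mean, but not for TRIB2 and IL1B. The likeness rests on 4 arrays and mainly on SH3, and is a description with no test.

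Neutrophil granule markers differed on the SH3 array, where FPR1 was high. Of the 6 neutrophil granule markers 5 were tested, and 4 of these were called lower on SH3 alone and 1, CAMP, which is also among the ligand genes, higher, against 6.9% of all tested genes lower and 6.27% higher. The median of the 5 was -1.13 for SH3 and -0.10 for SH1. MMP8, 1 of the lower ones, had controls that were 1.55 apart. ELANE, neutrophil elastase of immature granulocytic cells, was at 12.57 on SH1 and 11.22 on SH3, against 12.71 on LEN-GFP and 12.72 on SCR. MPO, counted below as the monocytic marker lower on SH3, was at 13.30 on SH1 and 12.31 on SH3. Its controls were at 13.30 on LEN-GFP and 13.36 on SCR. For the 18 monocytic markers the median was 0.13 for SH3 and -0.013 for SH1, and 4 were called higher and 1 lower on SH3 alone, against 6.27% of all tested genes higher and 6.9% lower. On SH1 alone 1 monocytic marker was called, CSF1R, a receptor tyrosine kinase of monocytes, which was higher by 0.96 (adjusted p = 0.0334), with 0.21 for SH3. Over all tested genes 0.171% were called higher on SH1 alone. The lists of T cell, B cell, erythroid, megakaryocyte, natural killer, epithelial and fibroblast markers had 1 to 3 tested genes each. None of these passed with both hairpins, against 0% of all tested genes. No neutrophil granule or monocytic marker passed in that test either, so it does not set these lists apart. Of the natural killer markers, KLRF1 differed from the controls by -0.28 on SH1 and -0.65 on SH3. NCAM1 differed by 0.22 and -0.073, and NCR1 by 0.013 and -0.066. The part of such shifts in the values of the receptors was not tested. In a culture, a larger share of cells with a receptor and more of its RNA per cell cannot be told apart.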

How the data were processed

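RNA of 4 NOMO-1 cultures was extracted with Trizol, and 200 ng of each was labelled with biotin, per the labels' protocols. A single table of linear intensities, 33297 probe sets by 4 arrays, is what the authors deposited. The submitters' processing notes name Affymetrix Expression Console 1.1 and RMA, and no source used here gives the step from RMA's log2 values to linear ones. Such normalized values do not show a change in total RNA per cell.

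The log2 of each intensity was taken without an offset. Probe sets with 1 gene symbol in the platform annotation (19460) were named through it, with symbols from RefSeq (GRCh38.p14). The probe set with the highest mean stood for its gene, and the 30% of genes with the lowest mean were left out. The comparison of the groups used limma 3.58.1 under R 4.3.3 (lmFit, eBayes with an intensity trend, two-sided, Benjamini-Hochberg adjustment over 12892 genes, threshold 0.05), with 2 residual degrees of freedom and a prior worth 2.95. The steps were run on simulated arrays whose added changes were alike on both hairpin arrays and larger than any mean difference of the receptors. Such a run does not tell how smaller changes, or changes on 1 hairpin alone, are recovered. The number of arrays, 2 a group, limits the precision. The genes, their lists and the motifs were chosen with earlier results of these data known.

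Always named were the 10 receptors and ZFX. From each of 4 pathway lists, with 31 of 35, 36 of 40, 26 of 27 and 33 of 38 genes on the array under 1 symbol, the 4 tested genes with the largest difference and no overlap of groups were named, and for the receptor of widest range the 5 nearest profiles. Alternatives were the filter, an offset of 50, the mean of probe sets, a second quantile step, median centring, limma without trend, no moderation, and each array left out.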

Additional observations from a re-analysis of the deposited data

Results flagged for a closer look

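The hairpins differed from each other for 2 of the 9 tested receptors, by the test of SH3 minus SH1 with each hairpin array as its own group. FPR1 was 1.79 higher on SH3 than on SH1 on the log2 scale (SE 0.15, adjusted p = 7.38e-04 in limma), and C5AR1 was 0.84 higher (SE 0.17, adjusted p = 0.0209). The lone arrays are assumed in this test to vary like the control pair, which for C5AR1 was 0.27 apart and for FPR1 0.08. The SE does not rest on that pair alone, since limma draws each gene's spread towards that of all tested genes. Across all tested genes 8.49% differed in this test.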

How the results depend on the processing

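The count of genes called by limma with both groups was 0 under each of the 8 alternatives that kept all arrays, and between 0 and 1698 with 1 array left out (1698 without SH1, 54 without SH3, 0 without either control). Under these 8 none of the 9 tested receptors changed sign or passed, with CCR2 between 0.52 and 0.62 and FPR1 between 0.88 and 0.93. The median over the receptors lay between 0.16 and 0.21 there, and between 0.12 and 0.45 with 1 array left out (0.45 without SH1). The count of receptors above both controls was 4 or 5 with all arrays and 4 to 7 with 1 left out (7 without SH1, which compares SH3 alone). The count below both was 0, 1 with no filter on dim genes, where FPR3 enters, and 0 to 2 with 1 array left out (2 without LEN-GFP, 2 without SH3, 1 without SH1). The differences that turned sign were those of C5AR1 (-0.11 without SCR and -0.40 without SH3, up to 0.45 without SH1) and CXCR4 (0.11 without SCR and 0.12 without SH3, down to -0.13 without SH1), at 0.027 and -0.0066 with all arrays. FPR1 ranged from 0.026 without SH3 to 1.82 without SH1, FPR2 from 0.16 to 0.50 and CX3CR1 from 0.22 to 0.65, while CCR2 ranged from 0.49 without LEN-GFP to 0.59 without SCR. With 1 array left out the list medians lay between 0.040 and 0.092 for ligands, 0.0052 and 0.13 for signalling, 0.029 and 0.075 for desensitisation, and 0.048 and 0.19 for other receptors. The causes were not tested. No paired analysis was possible because the numbers of the arrays only name constructs and pair no hairpin with a control. A dim gene such as FPR3 cannot be told from an unexpressed one.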
